A study of Mus musculus with 6 samples.

Results

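The Sprouty genes Spry1, Spry2 and Spry4, the related Spred1 and Spred2, the dual-specificity phosphatase genes Dusp4, Dusp5 and Dusp6, and the ETS factor genes Etv4 and Etv5 were taken by name, 10 genes of the 22180 measured. For each gene the probe set that carries its symbol alone was used, and where there were several, the one with the highest mean over the 6 arrays. All 10 were measured. The question addressed by the series is how an antibody against the receptor CSF1R alters gene expression in macrophages kept with myeloma cells. Bone marrow from 3 mice (C57BL/KaLwRij, the home strain of the 5TGM1 myeloma) gave macrophages during 7 days with M-CSF, a ligand of CSF1R. Both groups then shared an overnight coculture with 5TGM1-luc cells, a mouse myeloma line carrying luciferase, and 3 days of treatment. One group of 3 arrays (titled CS7 in the labels) had 0.5 nM of an antibody against mouse CSF1R, and the other group of 3 had a control IgG. The sources used here do not give ages, sexes or a separate IgG dose. The cultures had 4 washes meant to take off the myeloma cells before RNA extraction, and expression was read on whole-transcript mouse arrays.

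CSF1R is a receptor tyrosine kinase that signals, among other routes, through RAS, RAF and MEK to the kinase ERK. Active ERK induces genes whose products switch the cascade off again: Sprouty and Spred proteins act between the receptor and RAF, and dual-specificity phosphatases remove phosphate from ERK itself. Etv4 and Etv5 encode transcription factors of the PEA3 group of the ETS family, which ERK signalling induces in many cell types. Transcripts of several of these genes, though not of all, are widely used as a readout of ERK activity.

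Promoters are shown for some of the genes that the results turn on, as the sequence through which transcription starts. RefSeq's table (build GRCm38.p6) gave 8 promoters of 300 bases, from 250 before to 50 after the start, for 7 of the 10 genes. Capitals mark GGAA, the core that ETS factors bind, or TTCC, the same core on the other strand. Spred2 (chr11:19924192-19924491, + strand) and Spred1 (chr2:117120821-117121120, + strand) are close relatives, of which Spred2 fell and Spred1 did not pass the test, while Dusp6 (chr10:99262981-99263280, + strand) and Etv5 (chr16:22438319-22438618, − strand, the downstream of its 2 promoters) fell together with Spred2.
Spred2: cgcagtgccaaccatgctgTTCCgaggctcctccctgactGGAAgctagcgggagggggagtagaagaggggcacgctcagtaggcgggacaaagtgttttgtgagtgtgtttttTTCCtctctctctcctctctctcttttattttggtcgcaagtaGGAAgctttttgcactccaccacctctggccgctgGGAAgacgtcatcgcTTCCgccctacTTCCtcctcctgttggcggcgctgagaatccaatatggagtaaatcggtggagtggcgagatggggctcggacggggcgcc
Spred1: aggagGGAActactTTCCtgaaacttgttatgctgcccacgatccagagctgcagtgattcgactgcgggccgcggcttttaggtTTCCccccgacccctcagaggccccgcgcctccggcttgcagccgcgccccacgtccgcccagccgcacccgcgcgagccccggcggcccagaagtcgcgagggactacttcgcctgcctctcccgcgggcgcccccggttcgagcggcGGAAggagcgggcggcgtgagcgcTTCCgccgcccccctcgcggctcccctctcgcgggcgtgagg
Dusp6: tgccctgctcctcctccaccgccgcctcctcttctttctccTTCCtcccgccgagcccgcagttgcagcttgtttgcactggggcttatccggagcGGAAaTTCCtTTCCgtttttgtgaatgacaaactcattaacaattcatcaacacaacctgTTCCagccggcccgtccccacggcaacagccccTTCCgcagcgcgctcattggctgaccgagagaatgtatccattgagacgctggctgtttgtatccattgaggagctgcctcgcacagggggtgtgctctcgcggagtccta
Etv5: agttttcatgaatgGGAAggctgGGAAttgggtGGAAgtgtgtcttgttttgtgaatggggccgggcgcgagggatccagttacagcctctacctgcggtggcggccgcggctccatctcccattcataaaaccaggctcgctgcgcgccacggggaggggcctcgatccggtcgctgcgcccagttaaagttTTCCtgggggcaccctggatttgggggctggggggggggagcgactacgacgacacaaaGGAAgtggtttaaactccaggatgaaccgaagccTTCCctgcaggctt
The core occurred 7 times in the Spred2 promoter, 5 times in that of Spred1, 6 times in that of Dusp6 and 6 times in the Etv5 promoter shown, where the median over all 32851 promoters of the table was 3. It occurred 5 times in the Spry2 promoter, 3 times in that of Dusp5, 1 time in that of Spry1 and 0 times in the upstream promoter of Etv5. The core is short, and 96.0% of all promoters held it, so its presence sets none of these genes apart. The longer ETS site CCGGAAGT, the AP-1 site TGANTCA and the cyclic AMP response element TGACGTCA, each searched on both strands, were found in 0 of the 8 promoters, against 3.89%, 7.81% and 1.79% of all promoters. That says only that these letters are not in these windows. The 8 promoters had 57.0% to 74.0% G and C and 17 to 40 CpG pairs, above the medians of 52.7% and 7 over all promoters.

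With the CSF1R antibody, 6 of the 10 genes were lower than with IgG, 0 were higher, and 4 did not pass limma's test (at an unadjusted p under 0.05 the counts were likewise 6 and 0). Those that fell were Spred2, Spry4, Etv5, Etv4, Dusp5 and Dusp6, by 0.29 to 0.61 on the log2 scale, and none of them reached a 2-fold change. Among all 22180 genes, 16% were lower and 12.5% were higher by the same test, limma with Benjamini-Hochberg adjustment over all genes at 0.05. Among the 13116 genes whose mean signal lay above a background guide in at least 1 group, as it did for all 10, 26.0% were lower and 20.1% were higher. That guide, 4.92, is the level under which 95% of 1394 odorant and pheromone receptor genes lay, genes that macrophages are not thought to use. The median difference was −0.30 over the 10 genes, −0.02 over all genes and −0.06 over genes above the guide. The 3 antibody arrays lay wholly below the 3 IgG arrays for the same 6 genes, as they did for 22.7% of all genes, and wholly above them for 0 of the 10, against 16.6% of all genes. All levels below are log2 signals and all differences are antibody minus IgG on that scale, with limma's moderated 95% interval. Levels of different genes come from different probe sets and are not set against each other.

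**Figure D1:**
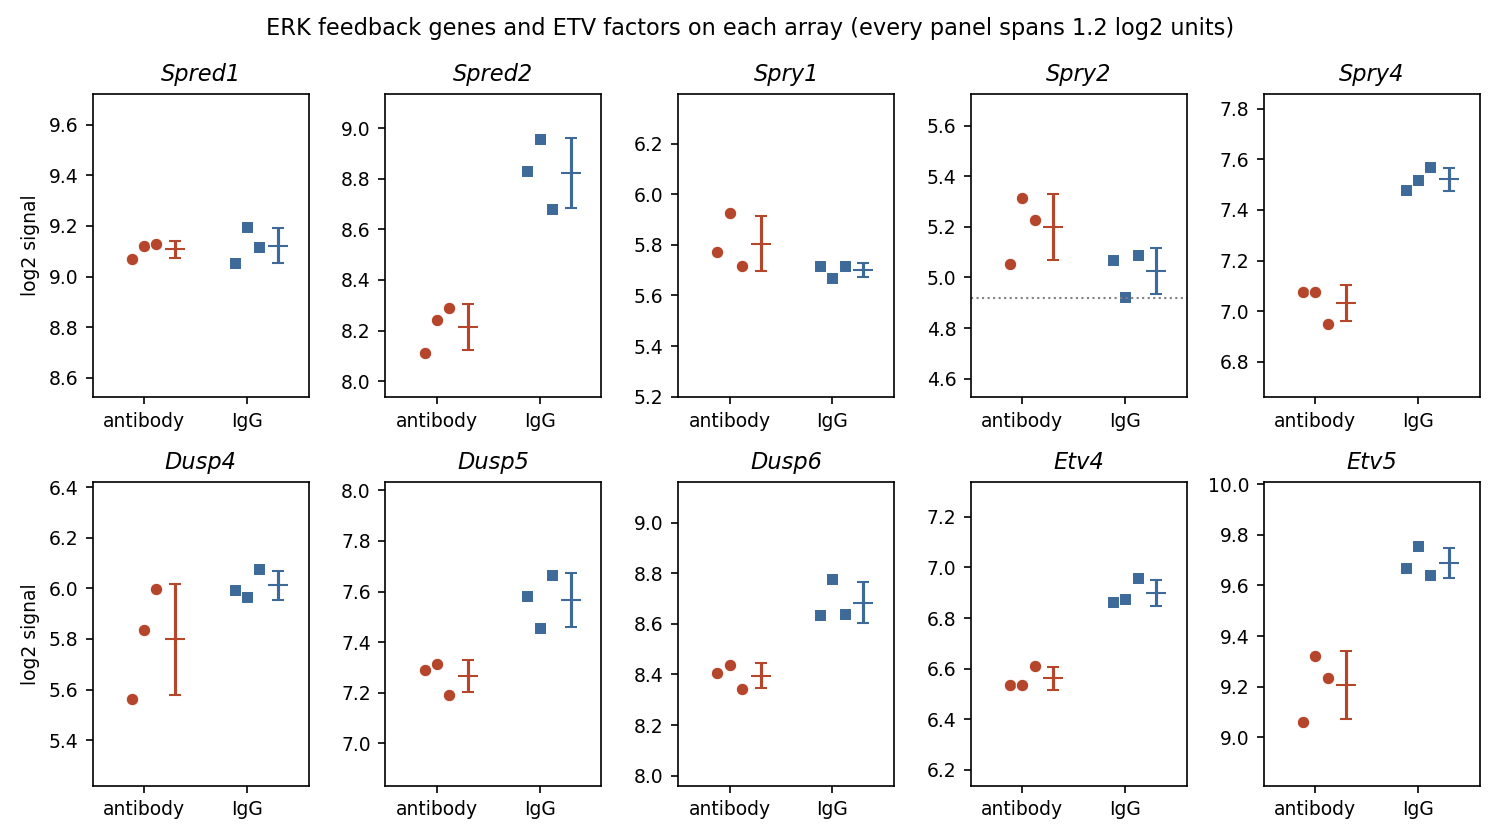
Log2 signal (vertical axis) of the 10 genes on the 3 CSF1R antibody arrays (circles) and the 3 IgG arrays (squares), with the mean and SD beside each group; the dotted line in the Spry2 panel is the background guide at 4.92. Every panel spans the same width in log2 units, and the antibody arrays sit wholly below the IgG arrays for Spred2, Spry4, Dusp5, Dusp6, Etv4 and Etv5.

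The Spred proteins bind RAS and RAF and bring the RAS inhibitor neurofibromin to the membrane. Spred2 stood at 8.11, 8.24 and 8.29 on the antibody arrays, against 8.83, 8.96 and 8.68 on the IgG arrays. The groups did not overlap, and the highest antibody array was well under the lowest IgG array. Spred2 had the largest fall of the 10, with a difference of −0.61 (95% interval −0.81 to −0.40, n = 3 arrays each; 1.52-fold lower; limma adjusted p = 0.0023), at the 0.987th percentile of the differences of all genes. Spred1 stood at 9.07, 9.12 and 9.13 with the antibody, against 9.05, 9.19 and 9.12 with IgG. The antibody values lay inside the IgG range, and the difference of −0.02 did not pass (interval −0.14 to 0.11; limma adjusted p = 0.88). That interval leaves room for a fall of at most 0.14, less than the smallest fall that Spred2's interval allows; the difference between these relatives was not tested in a model of its own.

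Sprouty proteins are induced by growth factors and inhibit RAS and RAF activation downstream of receptor tyrosine kinases. Spry4 stood at 7.07, 7.07 and 6.95 with the antibody, against 7.48, 7.52 and 7.57 with IgG. Both groups were tight and far apart, and the difference was −0.49 (interval −0.62 to −0.35; 1.40-fold lower; limma adjusted p = 0.00095), the smallest adjusted p of the 10. Spry1 stood at 5.77, 5.93 and 5.72 with the antibody, against 5.72, 5.67 and 5.72 with IgG. The groups met, since antibody replicate 3 and IgG replicates 1 and 3 carried exactly the same value, and the difference of 0.10 did not pass (interval −0.05 to 0.26; limma adjusted p = 0.32). Spry2 stood at 5.05, 5.31 and 5.23 with the antibody, against 5.07, 4.92 and 5.09 with IgG. These values were close to the background guide, the groups overlapped, and the difference of 0.17 did not pass (interval −0.03 to 0.37; limma adjusted p = 0.20). The interval of Spry1 excludes a fall of the size seen for Spry4. For Spry2 no such reading is possible, because its IgG signal had little room to fall above the guide. Spry4 and Etv4 likewise each had an identical value on antibody replicates 1 and 2. Such repeats were common, as 30.5% of probe sets had the same value on at least 2 arrays, and the source of the repeats was not tested.

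The phosphatases of the set differ in where they act, Dusp6 in the cytoplasm and Dusp4 and Dusp5 in the nucleus. Dusp6 stood at 8.41, 8.44 and 8.34 with the antibody, against 8.64, 8.78 and 8.64 with IgG. The groups were apart, with a difference of −0.29 (interval −0.43 to −0.15; 1.22-fold lower; limma adjusted p = 0.011). A further probe set of Dusp6 lay below the background guide on all arrays, at 3.01 to 3.93 with the antibody and 3.45 to 3.77 with IgG, and did not pass (difference −0.084). With cyclic loess scaling the Dusp6 difference was −0.18 (limma adjusted p = 0.092), so its call was lost there.

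Dusp5 stood at 7.29, 7.31 and 7.19 with the antibody, against 7.58, 7.46 and 7.67 with IgG. The groups did not overlap, and the difference was −0.30 (interval −0.47 to −0.13; 1.23-fold lower; limma adjusted p = 0.018), the largest adjusted p among the 6 genes called. The call of Dusp5 was lost without antibody replicate 3 (limma adjusted p = 0.055), without IgG replicate 1 (0.062) or IgG replicate 3 (0.053), with cyclic loess (0.080) and with the replicate number as a block (0.057). Dusp4 stood at 5.56, 5.84 and 5.996 with the antibody, against 5.995, 5.97 and 6.08 with IgG. The antibody arrays were spread widely (SD 0.22, against 0.06 for IgG) and reached into the IgG range, and the difference of −0.21 did not pass (interval −0.48 to 0.05; limma adjusted p = 0.22). It was −0.10 without antibody replicate 1 and −0.31 without antibody replicate 3, neither past the test, so antibody replicate 1 alone moved it by more than its SE of 0.11.

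Both ETS factor genes fell. Etv5 stood at 9.06, 9.32 and 9.23 with the antibody, against 9.67, 9.76 and 9.64 with IgG. The groups were well apart, with a difference of −0.48 (interval −0.67 to −0.30; 1.40-fold lower; limma adjusted p = 0.0040). The probe sets of Etv5 disagreed, however: the other one, also above the background guide, stood at 6.19, 6.03 and 5.78 with the antibody, against 5.99, 6.17 and 6.15 with IgG. Its groups overlapped, and its difference of −0.11 did not pass (limma adjusted p = 0.58 with that probe set in place of the main one). Etv4 stood at 6.54, 6.54 and 6.61 with the antibody, against 6.86, 6.88 and 6.96 with IgG. Its groups were apart, and it fell by 0.34 (interval −0.46 to −0.21; 1.26-fold lower; limma adjusted p = 0.0031). Etv1, the third PEA3 gene and not one of the 10, fell too, at 8.79 ± 0.01 with the antibody and 9.10 ± 0.10 with IgG (SD, n = 3 each; difference −0.31; limma adjusted p = 0.0098). Another probe set of Etv1, also above the guide, averaged 7.10 with the antibody and 7.32 with IgG, a smaller difference of −0.22. In the fit over every probe set it did not pass (limma adjusted p = 0.090, against 0.027 for the main one).

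**Figure D2:**
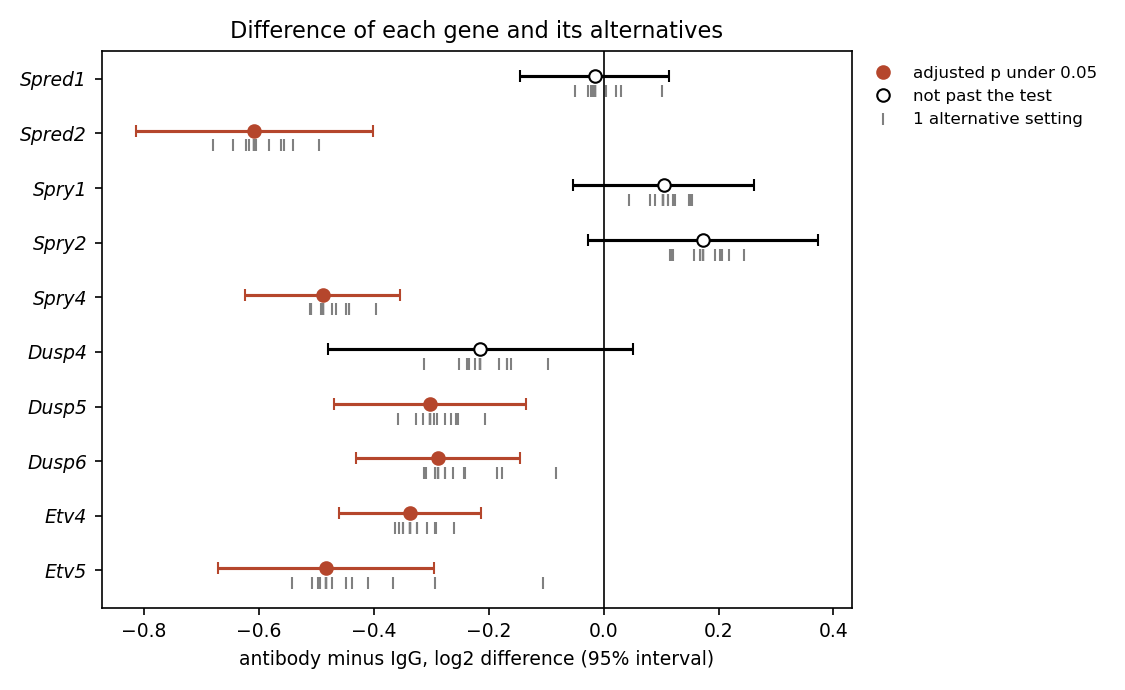
Antibody minus IgG difference of each gene on the log2 scale (horizontal axis) with its 95% interval, filled where the adjusted p was under 0.05, and grey ticks for the value under each alternative setting. Spred2, Spry4, Etv4 and Etv5 lie farthest from 0 relative to their intervals, Spry1 and Spry2 lie to the right of 0 without passing, and the tick of Etv5 nearest to 0 is its other probe set.

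Apart from that of Spred2, falls of this size were not rare among all genes. Spry4 stood at the 3.29th, Etv5 at the 3.43rd, Etv4 at the 9.60th, Dusp5 at the 11.9th and Dusp6 at the 12.7th percentile of the differences of all 22180 genes. Spry1 and Spry2 stood at the 74.9th and 82.5th percentile. These percentiles, like that of Spred2, also count genes below the background guide. Ranks among the 13116 genes above it, where all 10 lay, are not given here.

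**Figure D3:**
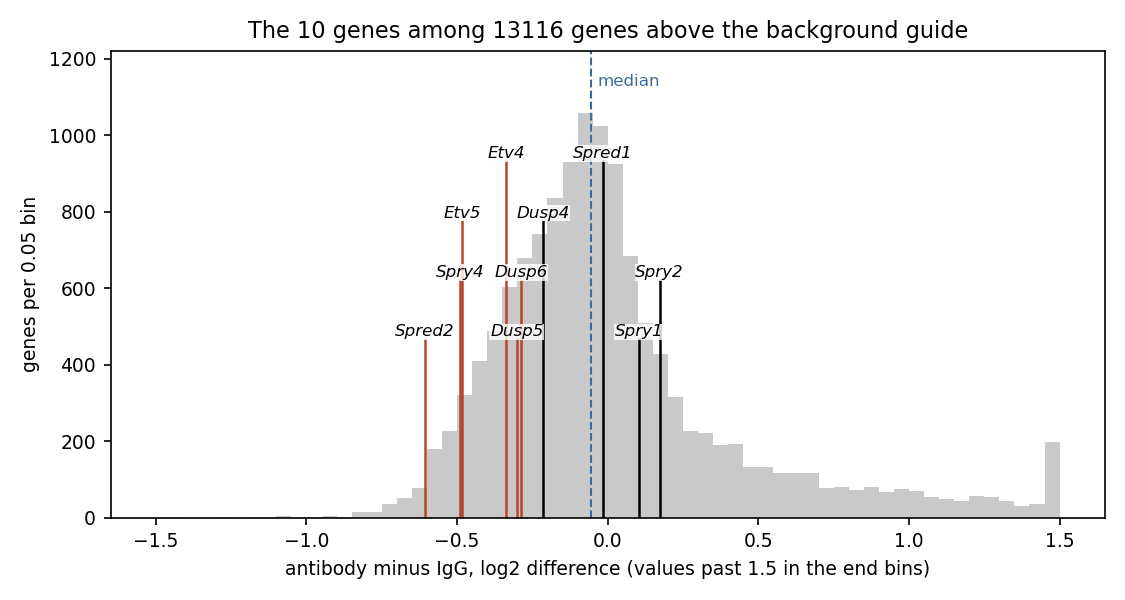
Number of genes per bin (vertical axis) against the antibody minus IgG log2 difference (horizontal axis) for the 13116 genes above the background guide, with labelled lines for the 10 genes, coloured where past the test, and a dashed line at the median. The 6 called genes lie between −0.61 and −0.29, left of the median of −0.06, inside the range of many other genes.

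Relatives outside the 10 did not share 1 direction. Spry3 rose, at 5.16, 5.03 and 5.19 with the antibody, against 3.80, 3.97 and 3.94 with IgG. The groups were far apart (limma adjusted p = 4.4e-05), but all IgG values lay below the background guide, so the fitted difference of 1.22 does not measure the size of the rise. Set against the guide itself, the antibody mean was 0.21 higher. Spred3 stood at 7.61 ± 0.13 with the antibody and 7.84 ± 0.07 with IgG (SD, n = 3 each) and did not pass (limma adjusted p = 0.072). Of 8 other genes listed with the MAP kinase phosphatases, 2 were higher, 2 were lower and 4 did not pass, with a median difference of −0.01. The shares over all genes above the guide were 20.1% higher and 26.0% lower. Styxl1, 1 of the 4 that did not pass, was below the guide in both groups. Dusp1, the immediate early nuclear phosphatase, rose by 0.37 (SE 0.05), and Dusp7, a cytoplasmic ERK phosphatase, by 0.30 (SE 0.07). Dusp8 and Dusp16, which act mainly on the stress kinases JNK and p38, fell by 0.39 (SE 0.06) and 0.38 (SE 0.05). The count of higher phosphatase genes was 1 without antibody replicate 2 or without IgG replicate 3.

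Other genes that ERK signalling induces moved both ways. Of 21 measured, 6 were higher, 5 were lower and 10 did not pass, with a median difference of −0.04. All genes above the guide also moved both ways, 20.1% higher and 26.0% lower. The largest rises were those of immediate early genes: Ier3 by 1.67 (SE 0.14), the zinc finger factor gene Egr1 by 1.02 (SE 0.08), Fos by 0.71 (SE 0.07) and the AP-1 subunit gene Junb by 0.65 (SE 0.07), with limma adjusted p of 0.00021 to 0.00055. The 5 that fell, picked out after their values were seen, were Myc (−0.52), the cyclin D1 gene Ccnd1 (−0.34), Phlda1 (−0.33), Etv1 (−0.31) and the EGF family ligand gene Hbegf (−0.26). These falls lay in the same range as those of the 6 called genes or just below it. Egr1 stood at 6.45, 6.48 and 6.48 with the antibody, against 5.33, 5.40 and 5.63 with IgG. Egr1 and Spry4, both known ERK targets, thus differed in sign on the same arrays, without overlap of the groups in either case.

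Among 23 other ETS factor genes, 4 were higher, 5 were lower and 14 did not pass, with a median difference of 0.05. For comparison, 20.1% of all genes above the guide were higher and 26.0% were lower. Spic, which encodes a factor of red pulp and other iron-handling macrophages, rose by 1.07 (SE 0.13), and Spi1, the gene of the macrophage lineage factor PU.1, by 0.88 (SE 0.06). Etv3, a repressor outside the PEA3 group, rose by 0.81 (SE 0.08) and Elk3 by 0.76 (SE 0.06). The 5 that fell, again named after their values were seen, were Ets2 (−0.60), Elk4 (−0.33), Etv1 (−0.31), Etv6 (−0.19) and Gabpa (−0.17). With cyclic loess 8 were higher and 2 lower, and leaving out any antibody array or IgG replicate 1 left 3 lower, so the counts of this list depend on these choices.

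Genes of the cascade itself moved both ways. Of 28 measured from a list of 37, 8 were higher, 6 were lower and 14 did not pass, with a median difference of 0.01. By the same test, 20.1% of all genes above the guide were higher and 26.0% were lower. Moving both ways thus does not set this list apart. The rises were led by the docking protein genes Gab1 (1.94, SE 0.08) and Gab2 (1.14, SE 0.05), which couple receptors to SHP2 and RAS, Rasgrp4, a RAS exchange factor gene (1.23, SE 0.12), and Cblb, for a ubiquitin ligase acting on receptors (1.01, SE 0.06). Limma adjusted p for these 4 ran from 1.4e-05 to 0.00048. The 6 that fell, picked out after their values were seen, were the RAS inhibitor gene Rasa2 (−0.46), the RAS exchange factor genes Rasgrp3 (−0.40) and Sos1 (−0.21), Ptpn11, the gene of SHP2 itself (−0.29), the RAF inhibitor gene Pebp1 (−0.28) and the RAF gene Braf (−0.27). The MEK genes Map2k1 and Map2k2, named after their values were seen, did not pass: Map2k1 stood at 9.24 ± 0.10 in antibody cultures and 9.08 ± 0.004 in IgG cultures, and Map2k2 at 10.06 ± 0.07 in antibody cultures and 10.10 ± 0.02 in IgG cultures (SD, n = 3 each). The ERK genes and some RAS and RAF genes, for which no probe set carried the symbol alone, were not analysed here. The count of lower cascade genes was 3 without IgG replicate 2 and 3 with cyclic loess.

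The receptors that feed the cascade rose more often than they fell. Of 22 growth factor receptor genes, 7 were higher, 1 was lower and 14 did not pass, with a median difference of −0.03, and 6 were below the background guide in both groups. Csf1r itself stood at 11.69, 11.69 and 11.77 with the antibody, against 10.65, 10.55 and 10.60 with IgG. Its transcript was thus 2.17-fold higher (limma adjusted p = 2.0e-05) while 6 of the 10 feedback and ETV genes were lower. Since the antibody acts on the protein, the transcript is no check of the labels. Kdr, for a VEGF receptor, rose by 1.34 (SE 0.06), Csf3r, for the G-CSF receptor, by 1.29 (SE 0.05), and Mertk, for a receptor of apoptotic cells, by 1.24 (SE 0.05). Csf1r and Mertk also stand in the list of macrophage markers below, and Kdr in that of endothelial markers. The 1 that fell, Igf1r (−0.56), was named after its value was seen, and the count of lower receptor genes was 2 without antibody replicate 2 and 3 without antibody replicate 3.

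**Figure D4:**
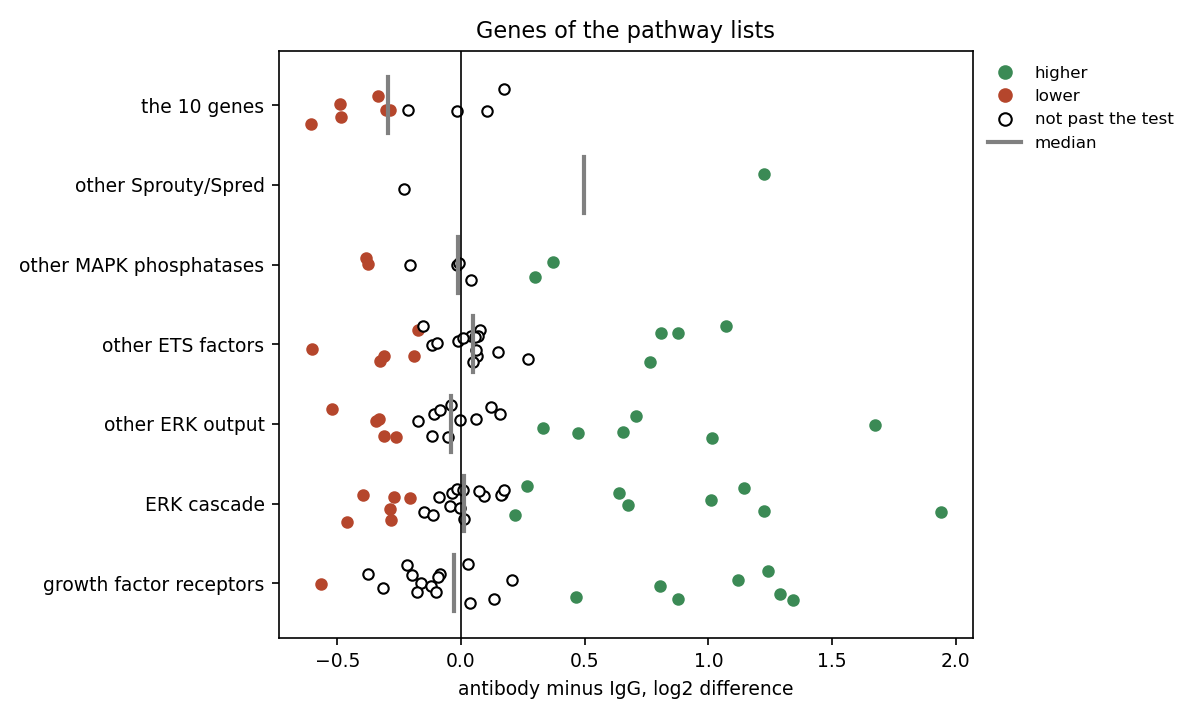
Antibody minus IgG log2 difference (horizontal axis) of every measured gene in the 10-gene set and 6 lists of the pathway, filled where past the test, with a grey bar at each list's median; vertical scatter within a list has no meaning. The 10 genes have no member past the test on the right, whereas each other list drawn here does, that of other Sprouty and Spred genes through 1 of 2 genes. The plasma cell and proliferation lists, not drawn, likewise had 0 genes higher.

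Markers of the macrophages and of other cells moved on the same arrays. To set beside the counts below, 20.1% of all genes above the background guide were higher and 26.0% were lower. Of 14 measured macrophage markers, 13 were higher and 0 lower (median difference 1.13), with summed linear signal of 39470 to 41380 on the antibody arrays and 21810 to 22470 on the IgG arrays, and Cd163 was below the background guide. Of 15 plasma cell markers, 0 were higher and 9 lower (median difference −0.30; sums of 17670 to 19280 with the antibody and 22440 to 23090 with IgG), with Tnfrsf17 and Cd79a below the guide. Some plasma cell genes nonetheless had high signal on both groups of arrays after the washes. Ighm averaged 12.74 in antibody cultures, against 12.88 in IgG cultures, and Irf4 averaged 11.06 in antibody cultures, against 11.48 in IgG cultures. Others did not, such as Mzb1, which averaged 5.49 in antibody cultures and 5.66 in IgG cultures. These genes were named after their values were seen. Of 18 stromal markers, 1 was higher, Dcn, and 9 were lower (median −0.37; sums of 1696 to 1821 with the antibody and 2970 to 3083 with IgG), with Dcn, Lum and Fap below the guide. Of 13 genes of proliferating cells, 13 were lower (median −0.60; sums of 7898 to 8478 with the antibody and 11550 to 11780 with IgG). These median shifts were at least as large as that of the 10 genes, and their part in the falls of Spred2, Spry4, Dusp5, Dusp6, Etv4 and Etv5 was not tested. Their part in the rises of Csf1r, Mertk and the other receptor genes was not tested either. In RNA from a mixed culture, fewer cells of a type and less RNA per cell cannot be told apart. Markers of T and NK cells were all below the guide (6 of 6), as were 8 of 10 neutrophil markers and 6 of 9 endothelial markers. The endothelial list had 1 gene higher, Kdr, and the neutrophil list had 1, Mmp8. Summed signal was 480.1 to 497.3 with the antibody and 296.1 to 307.8 with IgG for the endothelial list, and 907.5 to 1031 with the antibody and 493.5 to 513.3 with IgG for the neutrophil list. Most of each gap came from 1 gene: without Kdr the endothelial sums were 204.8 to 208.9 with the antibody and 192.3 to 193.4 with IgG, and without Mmp8 the neutrophil sums were 154.9 to 158.8 with the antibody and 156.5 to 160.6 with IgG.

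The genes whose pattern over the 6 arrays was most like that of Spred2, the member that fell most, were Usp34 (Pearson r = 0.999), CYTB (0.999) and Smu1 (0.999). For Spry2, the member with the highest difference, they were Slc2a13 (0.989), 4933417G07Rik (0.988) and Specc1 (0.987). With 22180 genes and 6 arrays in 2 groups, values this high are a description only.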

How the data were processed

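Total RNA of 6 cultures was labelled with the WT PLUS reagents and read on GeneChip Mouse Gene 2.0 ST arrays, per the labels' protocols. The deposited file holds linear probe set intensity values. The submitters' processing notes list RMA and limma without version or role. RMA as usually run makes arrays alike in distribution, which would hide a shift of most genes in 1 direction. The sources used here name neither summary level nor genome build. Array medians were 4.88 to 4.95 (log2), and correlations over probe sets were 0.992 to 0.993 within and 0.984 to 0.985 between groups. Arrays have no depth, and their number limits the precision.

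Values were taken as log2. Of 41345 probe sets, 23521 carried 1 gene symbol in the platform annotation, which can be old, 1814 several and 16010 none. The first kind gave 22180 genes, 1082 of them with several probe sets. All 10 genes matched RefSeq by Entrez identifier with the same symbol. The group test was limma 3.58.1, run in R 4.3.3 (4 residual degrees of freedom before moderation). No filter on low signal was set. The fit was tested on simulated data, with 200 of 22180 genes changed over 5 runs, where 4.14% of called genes were false. It found 12.1% of changes of 0.3 log2 units, 51.2% of 0.5 and 82.4% of 1, so small changes were often missed in the simulation. In the data 28.5% of genes were called, far more than were changed in the simulation, so these shares may not hold there. Motifs and figures used Python 3.11.15 and matplotlib 3.10.9. The labels link no replicate to a mouse, so p-values reflect only the spread among these samples, possibly technical. Same-numbered antibody and IgG arrays did not deviate together (correlations 0.03, −0.05 and 0.003), so numbers were not taken as pairs. The genes, lists and guide were chosen with earlier results of these data known. From each pathway list, up to 4 genes with the largest change past the test were named. GGAA was searched after the longer motifs gave no match.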

Additional observations from a re-analysis of the deposited data

How the results depend on the processing

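Of the 10 genes, 0 were higher under every alternative run, and 4 to 6 were lower. Spred2, Spry4 and Etv4 stayed lower and past the test in all 18 alternatives each, and Etv5 in 18 of 19. Spry1, Spry2 and Dusp4 passed in none of theirs. For Dusp5, the difference was −0.21 with cyclic loess (adjusted p = 0.080) and −0.30 with the replicate number as a block (adjusted p = 0.057), and ran from −0.36 to −0.25 (adjusted p of 0.014 to 0.062) leaving out 1 array at a time. For Dusp6, it was −0.18 with cyclic loess (adjusted p = 0.092), −0.19 when its probe sets were averaged (adjusted p = 0.36) and −0.084 with its other probe set (adjusted p = 0.84). For Etv5 it was −0.11 with its other probe set (adjusted p = 0.58). Spred1, near 0 throughout, changed sign to 0.030 with arrays centred on their medians and 0.10 with cyclic loess, and ran from −0.049 to 0.021 leaving out 1 array. With cyclic loess, genes lower numbered 2346 in place of 3548 over all genes, and genes higher 3411 in place of 2766. With arrays centred on their medians, 3071 were higher and 2766 lower, so which direction had more calls depended on the scaling. Cyclic loess also left 3 in place of 6 lower in the cascade and 3 in place of 5 for other ERK output. Other ETS factors then had 2 in place of 5 lower and 8 in place of 4 higher. At an adjusted p under 0.01, 2232 genes were lower over all, with 2 in the cascade and 3 ETS factors, and 1 phosphatase gene was higher. Lower ETS factors numbered 3 with arrays centred, with adjustment over every probe set and with the replicate block, which moved no other count of calls by over 1.5 times and ended no call among the 10 other than that of Dusp5. Lower growth factor receptors numbered 2 with an intensity trend, array weights, each of the 3 filters on low signal or log2(value + 16). Leaving out 1 array at a time gave 3 to 7 lower cascade genes, 1 to 2 higher phosphatases, 3 to 4 lower ETS factors and 1 to 3 lower receptors. The causes were not tested.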
